A study of Homo sapiens with 32 samples.

Results

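The genes described here are 41 genes of S-phase entry and DNA replication. They were chosen by name as genes of the E2F-driven replication programme and not by a measured value, although earlier results of these data were known. Each name matched 1 of the 57773 annotated genes in both count tables, and all 41 passed the filter on low counts after 6 h and after 24 h. Origin licensing was represented by 10 genes (ORC1, ORC6, CDC6, CDT1 and MCM2 to MCM7) and origin firing by 7 (CDC45, GINS1 to GINS4, MCM10 and CLSPN). A further 8 genes encode proteins of the replication fork (POLA1, POLE, PCNA, RFC2 to RFC5 and FEN1) and 4 supply nucleotides (RRM1, RRM2, TYMS and TK1). The remaining genes were 9 of E2F and cyclin control (E2F1, E2F2, E2F8, RBL1, CCNE1, CCNE2, CCNA2, CDK2 and CDC25A) and 3 of replication-coupled chromatin (CHAF1A, CHAF1B and UHRF1).

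The study asked how the EGF receptor and the angiotensin II receptor type 1 (AT1R) act together on transcription. RNA was sequenced from HEK293, a long-established line of human embryonic kidney cells, into which AT1R had been transfected. The transfection was transient, per the sample labels, so that not every cell need carry the receptor. Controls carried AT1R too and received no stimulus. The other groups were stimulated in serum-free medium during 6 h or 24 h, either with angiotensin II (AII) at 1 nmol/l, with EGF at 10 µg/l, or with both agents at these concentrations (AII+EGF). There were 4 libraries of each condition, except 3 of AII+EGF after 24 h. Nothing in the labels says that the libraries of a group came from separate cultures, so that p-values measure the spread between these libraries, which may be technical.

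In G1, the origin recognition complex, CDC6 and CDT1 load the MCM helicase onto DNA, and CDC45 and the GINS complex later turn it into a moving fork. E2F factors drive the transcription of most of these genes and are held back by pocket proteins, such as p107 encoded by RBL1, until cyclin-dependent kinases release them. EGF is a classical mitogen, whereas HEK293 cells carry adenoviral E1A, which binds the pocket proteins, and cycle without added growth factors more readily than primary cells.

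Many of the promoters share an E2F-type motif. The genes were chosen by name as genes of the E2F-driven programme, so that their share of promoters with the motif is not independent of the choice. RefSeq promoters (GRCh38.p14, 250 bases before to 50 bases from the start of the gene on) were given for 35 of the 41 genes and were searched on both strands for TTTCCCGC, TTTCGCGC, TTTGCCGC and TTTGGCGC, which may overlap one another. At least 1 of the 4 was found in 20 of these 35 promoters (57.1%), against 1090 of the 27305 promoters of all genes (4.0%). A match of letters is a description and not a binding site. The windows of 30 bases shown are those of CDT1, RBL1, MCM6 and CDC25A, whose RNA levels are given library by library further on, and of E2F1, MCM7 and PCNA, to show the motif in the regulator, the helicase and the sliding clamp. Each is written 5′ to 3′ on the strand of the gene, with 1 match or its reverse complement in capitals. Further matches within a window, as in RBL1 and MCM6, are not marked.
CDT1 (chr16:88803743-88803772, plus strand): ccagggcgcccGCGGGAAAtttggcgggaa
RBL1 (chr20:37096005-37096034, minus strand): cagctgcagatTTTCGCGCgctttggcgca
MCM6 (chr2:135876577-135876606, minus strand): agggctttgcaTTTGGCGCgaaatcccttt
CDC25A (chr3:48188443-48188472, minus strand): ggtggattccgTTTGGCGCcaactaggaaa
E2F1 (chr20:33686400-33686429, minus strand): gtggctctttcGCGGCAAAaaggatttggc
MCM7 (chr7:100101566-100101595, minus strand): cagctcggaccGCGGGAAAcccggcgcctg
PCNA (chr20:5126663-5126692, minus strand): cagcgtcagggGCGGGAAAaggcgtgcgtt
Of the genes shown, MCM6 held 4 such matches, in overlapping pairs, and RBL1, E2F1 and MCM7 held 2 each. Some genes not shown, such as MCM3, also held more than 1. In RRM2 and ORC1 these letters were not found in the window, in MCM2 they lay at or after the start of the gene, and for MCM5 no promoter was used.

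Total counts were 3881841 to 8540815 per library after 6 h and 6646227 to 33070903 after 24 h, of which 3176067 to 7033501 and 3216794 to 8028878 lay on protein-coding genes. The 41 genes held 22001 to 48835 of them after 6 h and 18012 to 46552 after 24 h, and a single gene had 29 to 4310 and 28 to 4532 counts in a library. Levels are given as FPM, the CPM of the genes tested with library sizes scaled by TMM normalisation. Because non-coding RNA took a much larger share of the 24 h libraries, FPM values are not compared between the time points. EGR1, an immediate early gene used here to check the labels, had 47.8 to 68.4 FPM in the 8 libraries with EGF after 6 h and 1.39 to 4.0 FPM in those without. AGTR1, which encodes the transfected receptor, had 950.1 to 1236 FPM without AII and 1318 to 1568 FPM with AII after 6 h. After 24 h its ranges overlapped, with 369.4 to 685 FPM without AII and 368.9 to 620 FPM with AII. Of the kidney-lineage genes that HEK293 cells use, LHX1 and EYA1 were detected in every library, whereas PAX2 had 0 to 10 counts.

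Levels per kilobase of exons differed widely between the genes. PCNA, the sliding clamp of the fork, had the highest level in the 6 h controls, with 125 ± 12 FPM per kilobase (SD, n = 4). MCM3, MCM7 and MCM2 followed with 111 ± 11, 97.5 ± 4.4 and 92.9 ± 9.9 FPM per kilobase, whereas CCNE1, the gene of cyclin E1, had the lowest level with 4.59 ± 1.4 FPM per kilobase. The helicase subunits thus lay above the firing factors, of which CDC45 was highest with 24.9 ± 0.985 FPM per kilobase and GINS3 lowest with 5.65 ± 0.625 FPM per kilobase. Exon lengths came from an annotation later than that of the counts, and UHRF1 had none. They cover the exons of all annotated transcripts of a gene together, and the order of the levels depends on them. The control libraries agreed closely after 6 h, when the coefficient of variation of FPM over the 4 libraries had a median of 6.6% over the 41 genes (lowest for CDC6 with 0.7%, highest for CCNE1), against 11.4% over 11244 protein-coding genes above 5 FPM. After 24 h the medians were 15% and 15.5%. The 41 genes and the protein-coding genes were not matched for level, on which this measure depends.

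**Figure D1:**
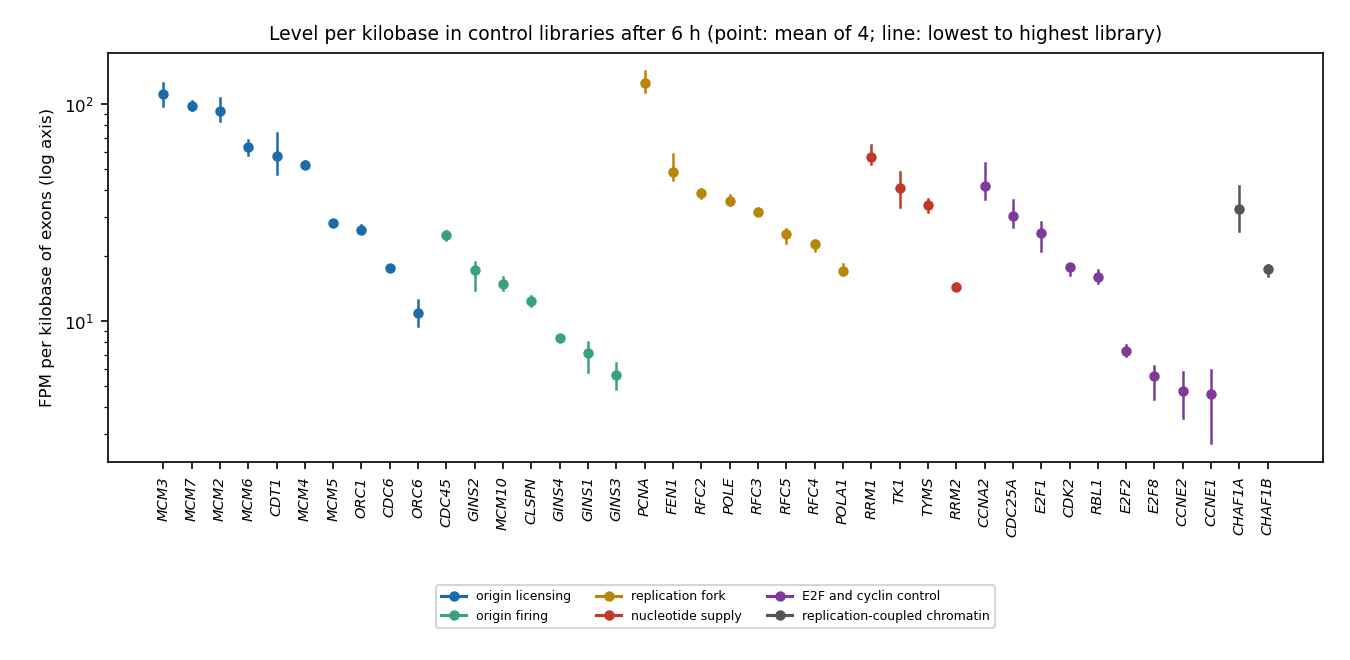
Level in FPM per kilobase of exons (log axis) of 40 of the 41 genes in the control libraries after 6 h, ordered by role and level. Points are means of 4 libraries and lines run from the lowest to the highest library. PCNA, MCM3, MCM7 and MCM2 lie at the top, and CCNE1, CCNE2, E2F8 and GINS3 at the bottom.

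The first comparison asked what EGF did to these genes after 6 h. RRM2, the small subunit of ribonucleotide reductase, rose 1.37-fold, and 4 genes of origin licensing fell: CDT1 to 0.70, MCM5 to 0.80, ORC1 to 0.82 and MCM2 to 0.82 of control. None of the 41 changed by more than 1.5-fold with an adjusted p under 0.05 and a mean above 5 FPM, the rule by which 1.73% of 18618 genes were called regulated by edgeR's quasi-likelihood test with Benjamini-Hochberg adjustment over all genes. At an adjusted p under 0.05 alone, 1 of 41 was higher (background 3.60%) and 4 were lower (background 2.37%). At an unadjusted p under 0.05, 2 were higher (background 10.2%) and 10 lower (background 10.0%). The 4 libraries of each group did not overlap in 1 gene that was higher (background 6.61%) and in 7 that were lower (background 5.43%), namely the 4 that fell and GINS4, POLE and RFC2. DESeq2 called the same numbers at an adjusted p under 0.05, and 0 by the full rule. The count of lower genes rested on single libraries: without EGF library 1, which also had the lowest GC measure given further on, it was 0 in place of 4, and without control library 1 or EGF library 2 it was 2. With protein-coding genes only, RFC2 was lower as well. In bulk RNA, fewer cells in S phase and less RNA per cell cannot be told apart.

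RRM2 had 129.5, 133, 136 and 129 FPM in the 4 control libraries and 179, 187, 179 and 178 FPM with EGF. Every EGF library lay above every control library. On the log2 scale the fold change was 0.46 (SE 0.07), with an adjusted p of 0.00041 in edgeR's quasi-likelihood test. Its value was 0.48 within the first and 0.43 within the second library series, which are runs of library numbers, and the call held whichever library was left out. The other subunit of the enzyme, RRM1, and the other genes of nucleotide supply, TYMS (thymidylate synthase) and TK1 (thymidine kinase), did not pass the test.

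CDT1, the licensing factor that brings the helicase to the origin, had 202, 138, 131 and 163 FPM in control and 99.9, 100.4, 111 and 129 FPM with EGF. The groups did not overlap, although the highest EGF library came close to the lowest control. The log2 fold change was -0.52 (SE 0.13, edgeR adjusted p 0.014), and it was -0.76 within the first and -0.30 within the second series. CDT1 lost the call without control library 1 (log2 fold change -0.38, adjusted p 0.06) or without EGF library 1 (-0.47, adjusted p 0.053). Without control library 3 or EGF library 4, on the other hand, its log2 fold change was -0.60 and it passed the full rule.

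MCM5, a subunit of the helicase, had 209.8, 199, 206 and 211 FPM in control and 151, 165, 163 and 178 FPM with EGF. Here too every EGF library was lower than every control. Its log2 fold change was -0.33 (SE 0.08, edgeR adjusted p 0.013), -0.38 and -0.29 within the series, and the adjusted p was 0.053 without EGF library 1.

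ORC1, the largest subunit of the origin recognition complex, had 82.6, 80.4, 86.2 and 79.2 FPM in control and 63.3, 63.4, 72.4 and 69.6 FPM with EGF, again without overlap. The log2 fold change was -0.29 (SE 0.07, edgeR adjusted p 0.017), with -0.36 and -0.22 within the series. Leaving out control library 3, EGF library 1 or EGF library 2 gave adjusted p from 0.054 to 0.065, and testing without the filter on low counts gave 0.11.

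MCM2, another helicase subunit, had 502, 393.5, 418 and 439 FPM in control and 342, 348, 354 and 392.3 FPM with EGF. The groups did not overlap, but EGF library 4 and control library 2 were nearly equal. The log2 fold change was -0.29 (SE 0.08, edgeR adjusted p 0.033), with -0.38 and -0.20 within the series. The call was lost without any 1 of control libraries 1 and 4 and EGF libraries 1, 2 and 3 (adjusted p 0.072 to 0.12).

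**Figure D2:**
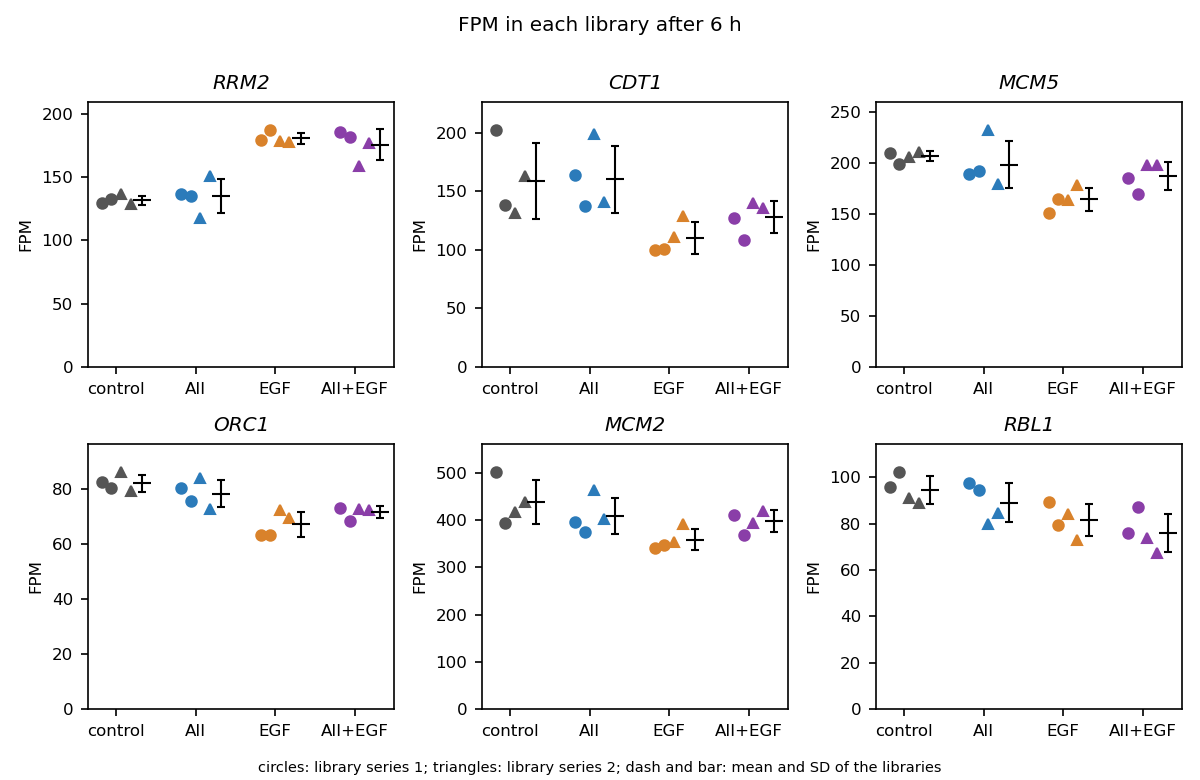
FPM in each library after 6 h for RRM2, the 4 licensing genes that fell with EGF and RBL1, by condition. Circles and triangles are libraries of the first and second series, and the dash and bar give mean and SD. RRM2 lies between 159 and 187 FPM in the 8 libraries with EGF and between 118 and 151 FPM in the 8 without.

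By role, the licensing genes had the lowest median log2 fold change with EGF after 6 h, -0.149 over 10 genes with 8 below 0, against -0.063 over all 41 and -0.012 over all genes tested. Replication-coupled chromatin lay close, with a median of -0.121 (3 of 3 below 0), and nucleotide supply had 0.006 (1 of 4 below 0). Origin firing had a median of -0.065 (5 of 7 below 0), with GINS2 at -0.33 (adjusted p 0.096) and GINS3 at -0.24 (adjusted p 0.2) in edgeR. The replication fork had -0.019 (4 of 8 below 0), with RFC2, a subunit of the clamp loader, at -0.22 (edgeR adjusted p 0.081), and E2F and cyclin control had -0.002 (5 of 9 below 0), with values from -0.22 for RBL1 to 0.30 for CCNE1. The 95% intervals of 38 of the 41 genes lay within a change of 1.5-fold in either direction, the exceptions being CDT1, RRM2 and CCNE1. After 24 h the licensing genes had a median of 0.081 with EGF and 10 of 10 lay above 0, and the median of the 24 h minus 6 h difference was 0.258, again with 10 of 10 above 0. No licensing gene passed an adjusted p under 0.05 in either by edgeR without the correction for GC content given further on. The library series differed after 24 h. They also differed in the names of their count columns and in the GC measure, both given further on. Within the first, the log2 ratios with EGF ran from -0.03 (ORC6) to 0.37 (MCM2). Within the second, ORC6 (0.17), MCM6 (0.09), MCM4 (0.08) and CDC6 (0.02) lay above 0. CDT1 and MCM7 were at 0 there, and MCM3 (-0.03), MCM2 (-0.04), ORC1 (-0.08) and MCM5 (-0.22) lay below.

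The libraries differed in how strongly GC-rich genes were represented. The median level of 2773 GC-rich protein-coding genes (GC content of exons from 55.1%) minus that of 2773 GC-poor ones (up to 41.4%), on the log2 scale and relative to the mean of the 6 h libraries, ran from -0.134 to 0.319 in control and from -0.389 to 0.023 with EGF. It was highest in control library 1 and lowest in EGF library 1. A like measure over the 24 h libraries, with 2527 genes on each side, differed between the library series. It ran from -0.411 to 0.127 in the first series and from -0.027 to 0.427 in the second, and its part in the series differences was not tested. CDT1 is the most GC-rich of the genes (64.3% of its exons), and MCM2 (56.0%), MCM5 (55.1%) and ORC1 (50.7%) lie above the median of 48.8%. Across 40 of the genes the log2 fold change with EGF correlated with GC content with a Pearson's r of -0.46 (Spearman's rho -0.47), and across 13016 protein-coding genes with -0.20 (rho -0.27). All genes of a correlation share the same libraries and depth, and it is given as a description only.

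With the trend of level on GC content removed from each library, a correction chosen after the data were seen, EGF after 6 h gave 1 gene higher (4.71% of all genes tested with the same correction) and 6 lower (3.61%) at an adjusted p under 0.05. RRM2 had a log2 fold change of 0.47 (SE 0.07), and CDT1 had -0.41 with its SE reduced to 0.07 (edgeR adjusted p 0.00036). MCM5 had -0.26, ORC1 -0.26 and MCM2 -0.21 (edgeR adjusted p 0.0045, 0.01 and 0.024). MCM6 and RBL1 also passed, with -0.23 (edgeR adjusted p 0.048) and -0.28 (edgeR adjusted p 0.019). With this correction the 4 licensing genes had smaller changes and an adjusted p under 0.05. It was not repeated with single libraries left out, and a part of GC content in these changes was not tested.

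**Figure D3:**
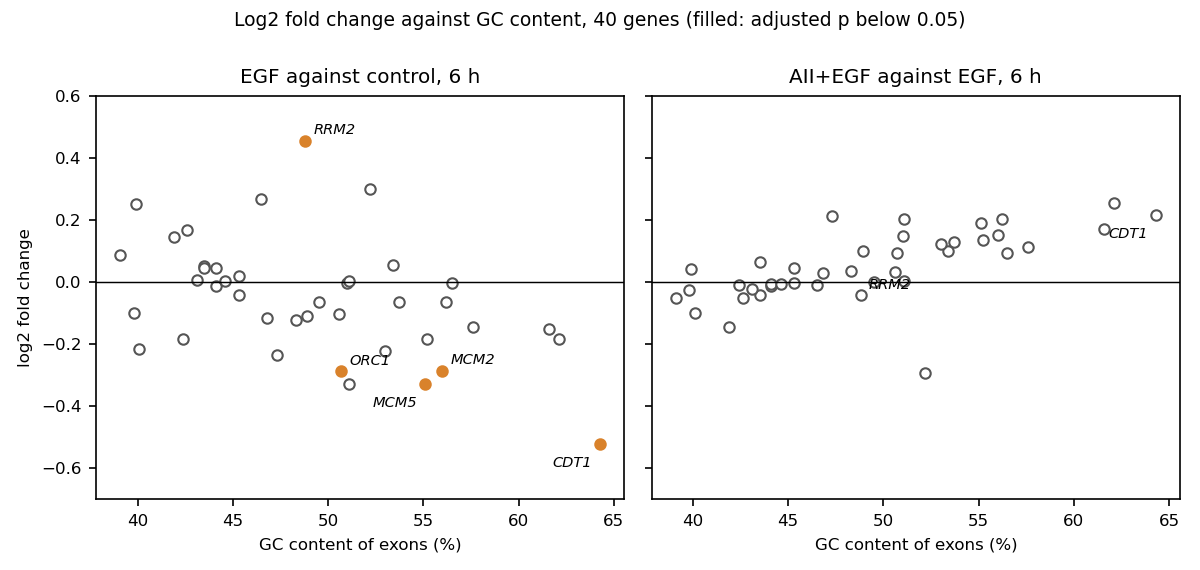
Log2 fold change after 6 h against the GC content of exons (%) for 40 of the 41 genes, for EGF against control and for AII+EGF against EGF. Filled points passed an adjusted p of 0.05. CDT1 is the rightmost point in both panels, at -0.52 and 0.22.

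A further value moved with EGF after 6 h. The summed level of 11 markers of other cell types was 35.2 to 52.7 FPM in control, 37.8 to 45.8 FPM with AII, 30.9 to 34.1 FPM with EGF and 34.5 to 37.4 FPM with AII+EGF. MYH11 (10.4 to 21.3 FPM) and COL3A1 (14 to 32.6 FPM) made up nearly all of it, while the leukocyte marker PTPRC, the endothelial marker CDH5 and the keratinocyte marker KRT5 had at most 2 counts in any 6 h library. The other 9 markers had at most 6 counts there. Its part in the results was not tested.

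The second comparison asked what AII+EGF did after 6 h. RRM2 rose 1.33-fold and RBL1, the gene of the pocket protein p107, fell to 0.80 of control. By the full rule 0 of 41 were called (background 1.95%), also with DESeq2. At an adjusted p under 0.05 alone, 1 was higher (background 4.0%) and 1 lower (background 2.11%), and at an unadjusted p under 0.05, 2 were higher (background 10.1%) and 4 lower (background 8.89%). The libraries of the groups did not overlap in 3 genes that were higher (background 6.77%: RRM2, E2F8 and CDC6) and 5 that were lower (background 5.37%: MCM5, MCM6, ORC1, POLA1 and RBL1). The median log2 fold change over the 41 genes was -0.002, against -0.014 over all genes tested.

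RRM2 had 186, 181, 159 and 177 FPM with AII+EGF, all above the control libraries. Its log2 fold change was 0.41 (SE 0.07, edgeR adjusted p 0.0009), with 0.48 and 0.34 within the series. RBL1 had 95.8, 102, 91.2 and 88.8 FPM in control and 76.0, 87.2, 73.7 and 67.5 FPM with AII+EGF, without overlap. Its log2 fold change was -0.32 (SE 0.09, edgeR adjusted p 0.035), and it lost the call when any 1 of 8 of the 16 libraries was left out (adjusted p 0.051 to 0.15).

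MCM6, the gene with the next lowest p, had 281, 239.9, 266 and 256 FPM in control and 216, 225, 231 and 239 FPM with AII+EGF. The highest AII+EGF library lay just under the lowest control. The log2 fold change was -0.19 (SE 0.07) and did not pass (edgeR adjusted p 0.12). The licensing genes that fell with EGF had log2 fold changes of -0.31 (CDT1), -0.14 (MCM5), -0.19 (ORC1) and -0.13 (MCM2) with AII+EGF, with edgeR adjusted p of 0.18, 0.36, 0.13 and 0.39. Both comparisons share the control libraries. After correction for GC content the AII+EGF values were -0.40 for CDT1 and -0.20 for ORC1, which then passed (edgeR adjusted p 0.00043 and 0.045), and -0.17 for MCM5 and -0.16 for MCM2, which did not (edgeR adjusted p 0.074 and 0.084). With this correction 1 of the 41 was higher (5.26% of all genes) and 3 were lower (3.60%), RBL1 being the other one.

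**Figure D4:**
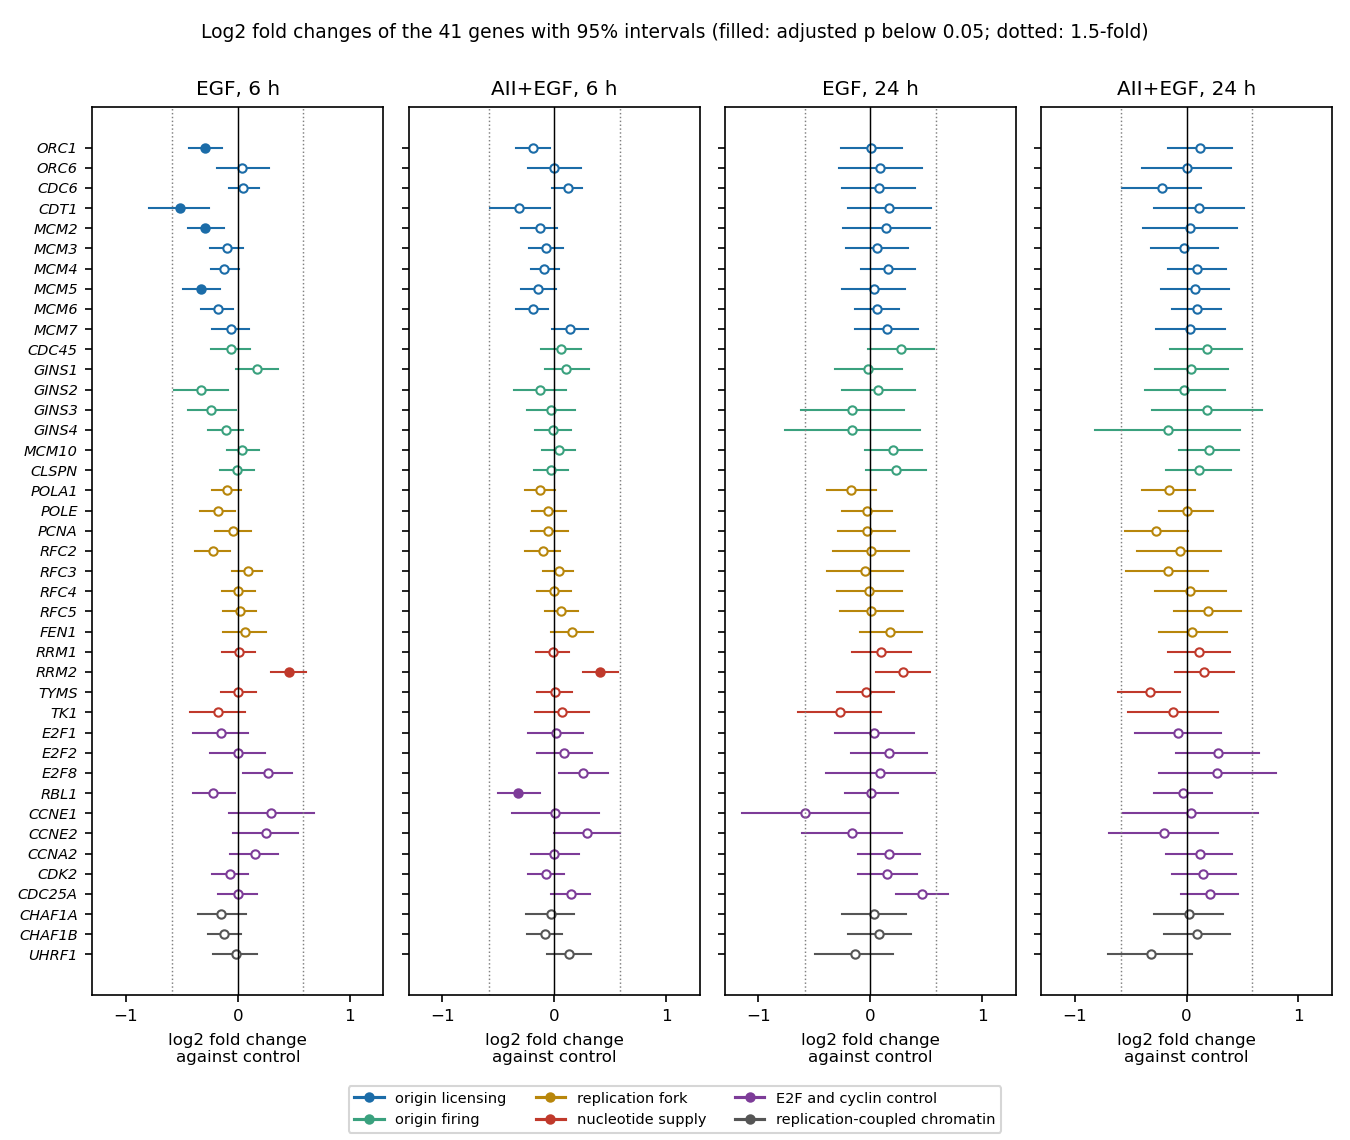
Log2 fold change against control (x axis) of all 41 genes, ordered and coloured by role, with EGF and with AII+EGF after 6 h and 24 h. Lines are 95% intervals, filled points passed an adjusted p of 0.05 and dotted lines mark 1.5-fold. RRM2 is filled in both 6 h panels, and no point is filled after 24 h.

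AII alone gave no call among these genes after 6 h. By the full rule and at an adjusted p under 0.05, 0 of 41 were called by edgeR and by DESeq2 (background 0%), with 1 higher (background 2.21%) and 3 lower (background 2.33%) at an unadjusted p under 0.05. The groups did not overlap in 1 gene that was higher (background 0.978%) and 2 that were lower (background 1.16%: CDC6 and MCM4). The 3 genes with the lowest p are given in full. E2F8, a repressor of the E2F family, had 18, 25.5, 24 and 24.3 FPM in control and 28.1, 28.6, 26.9 and 28.6 FPM with AII. The groups did not overlap, but the log2 fold change of 0.28 (SE 0.11) did not pass (edgeR adjusted p 0.99). GINS3 had 32.6, 28.9, 29.1 and 24.8 FPM in control and 24.7, 25.3, 22.8 and 22.3 FPM with AII, and MCM6 had 230.3, 210.4, 231 and 247 FPM with AII against the control values given above. Their groups overlapped, with log2 fold changes of -0.27 (SE 0.11) and -0.18 (SE 0.07), both at an edgeR adjusted p of 0.99. The 95% intervals of 40 of 41 genes lay within 1.5-fold, CCNE1 being the exception.

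Whether AII modified the response to EGF was asked by setting AII+EGF directly against EGF and by the interaction, the AII+EGF effect minus the sum of the single effects on the log2 scale. In both, 0 of 41 genes were called by edgeR or DESeq2 after 6 h (background 0%). AII+EGF against EGF had 3 genes higher (MCM7, MCM5 and TK1, background 3.78%) and 0 lower (background 3.49%) at an unadjusted p under 0.05, with log2 differences of 0.20, 0.19 and 0.25, and the intervals of 40 of 41 lay within 1.5-fold. No gene was separated between these groups in either direction (background 2.85% and 2.73%). The interaction had 8 higher (background 3.8%) and 0 lower (background 4.21%), with GINS3 at 0.48 (SE 0.15) and CDC25A at 0.35 (SE 0.12), both at an edgeR adjusted p of 0.59. It was above 0 in 30 of 41 genes and in 10 of 10 licensing genes, with a median of 0.132 over the 41 against 0.007 over all genes tested.

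These differences ran with GC content as well. Over 40 of the genes, the log2 fold change of AII+EGF against EGF correlated with GC content with a Pearson's r of 0.66 (Spearman's rho 0.76) and the interaction with 0.54 (rho 0.63). Over 13016 protein-coding genes, r was 0.53 (rho 0.62) and 0.46 (rho 0.54). The 4 AII+EGF libraries lay at 0.015 to 0.301 on the GC measure used above, mostly higher than the EGF libraries. After correction for GC content, the interaction had 5 genes higher (2.73% of all genes with the correction) and 1 lower (2.83%) at an unadjusted p under 0.05. Its median over the 41 genes was then 0.091, with 31 of 41 above 0, and CDT1 moved from 0.20 to -0.02.

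EGF given on top of AII was measured by AII+EGF against AII after 6 h. RRM2 rose by 0.38 on the log2 scale (SE 0.07, edgeR adjusted p 0.0021), from 137, 135, 118 and 151 FPM with AII to the values given above. CDC25A, a phosphatase that activates cyclin-dependent kinases, had 109.8, 105, 111 and 116 FPM with AII and 129, 145, 134 and 152 FPM with AII+EGF. Every AII+EGF library lay above every AII library, and the log2 fold change was 0.34 (SE 0.09, edgeR adjusted p 0.016). CDC25A lost this call without AII library 1 or 2 or AII+EGF library 2 or 4 (adjusted p 0.051 to 0.072), leaving RRM2 alone. CDC25A had 150.3, 112, 119 and 126 FPM in control, and its log2 fold change of AII+EGF against control was 0.15 (SE 0.09, edgeR adjusted p 0.38). By the full rule 0 of 41 were called (background 1.87%), and at an adjusted p under 0.05 alone these 2 were higher (background 3.92%) and 0 were lower (background 2.01%). At an unadjusted p under 0.05, 6 were higher (background 10.3%) and 2 lower (background 9.33%), and the groups did not overlap in 4 that were higher (background 7.12%) and 0 that were lower (background 5.64%). With the GC correction, CDC6 was also higher (3 genes, against 4.89% of all genes) and CDT1 was lower at -0.43 (1 gene, against 3.13%; edgeR adjusted p 0.00019), and CDT1 was lower without the filter on low counts too.

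After 24 h no gene of the 41 passed an adjusted p under 0.05 in edgeR in any comparison. The full rule called 0 of 41 for AII, EGF and AII+EGF against control, where the background was 0%, 0.0316% and 0.0271%. At an unadjusted p under 0.05, EGF had 2 genes higher (background 4.0%) and 1 lower (background 4.48%), AII had 0 in either direction (background 1.27% and 1.22%), and AII+EGF had 0 higher (background 2.92%) and 1 lower (background 2.48%). DESeq2 called CDC25A with EGF at an adjusted p under 0.05 and no other of the 41 in these 3 comparisons. The medians of the log2 fold change over the 41 genes were 0.009 for AII, 0.061 for EGF and 0.036 for AII+EGF, against 0.001, -0.003 and -0.006 over all genes tested.

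Since too few genes passed, the 3 genes with the lowest p of each comparison are given. With EGF, CDC25A had 43.6, 44.4, 47.1 and 45.1 FPM in control and 71.5, 58.7, 56.1 and 62.1 FPM with EGF. All EGF libraries were higher than all controls (1 such gene, background 2.35%), and the 3 libraries of AII+EGF, at 54.3, 47.2 and 54.2 FPM, lay between them. The log2 fold change with EGF was 0.46 (SE 0.11), with 0.56 and 0.36 within the series, and an adjusted p of 0.18 in edgeR against 0.02 in DESeq2. The 95% interval ran from 0.23 to 0.69.

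RRM2 had 74.1, 75.9, 72.4 and 62.5 FPM in control and 99.2, 95, 82.3 and 71.4 FPM with EGF after 24 h. In contrast to 6 h, the groups overlapped, and the log2 fold change of 0.29 (SE 0.12) did not pass (edgeR adjusted p 0.5). CCNE1 was near the lower end of detection, with 28 to 140 counts in these libraries, and had 3.89, 5.83, 7.43 and 6.26 FPM in control and 3.23, 2.32, 4.95 and 5.14 FPM with EGF. Its log2 fold change was -0.58 (SE 0.27, edgeR adjusted p 0.58), with an interval from -1.15 to -0.01.

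With AII+EGF after 24 h, TYMS had 37.9, 38.8, 43.3 and 51.7 FPM in control and 38.5, 31.3 and 32.2 FPM in the treated libraries, a log2 fold change of -0.33 (SE 0.13, edgeR adjusted p 0.89). PCNA had 42.7, 50.0, 46.8 and 47.3 FPM in control and 45.7, 33.7 and 36.5 FPM with AII+EGF (-0.27, SE 0.13, edgeR adjusted p 0.93). In both genes the treated library of the first series lay among the controls and the other two lay below them. UHRF1, which recognises hemimethylated DNA behind the fork, had 117, 75.2, 138 and 128 FPM in control and 84.6, 95 and 95.5 FPM with AII+EGF (-0.32, SE 0.18, edgeR adjusted p 0.97).

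With AII after 24 h, TK1 had 18.5, 18.1, 22.6 and 21.1 FPM in control and 11.5, 13, 20.3 and 18.8 FPM in the treated libraries. The 2 low values both belong to the first series, and the log2 fold change was -0.34 (SE 0.18, edgeR adjusted p 1). CLSPN, an adaptor of the replication checkpoint, had 35.6, 44.7, 44 and 52.5 FPM in control and 52.6, 44.2, 53.9 and 56.6 FPM with AII (0.23, SE 0.13). MCM6 had 74.5, 75.0, 78.3 and 64.7 FPM in control and 76.6, 81.0, 85.7 and 83.4 FPM with AII (0.16, SE 0.10), and both overlapped with an edgeR adjusted p of 1.

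**Figure D5:**
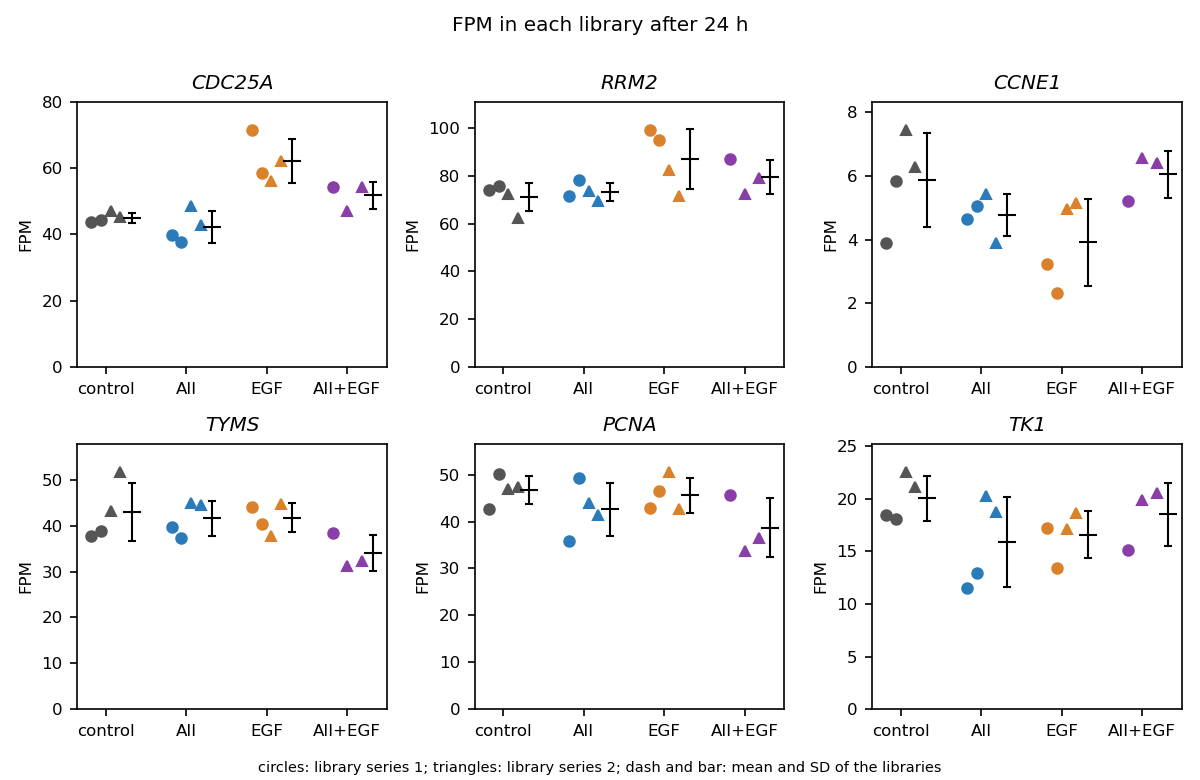
FPM in each library after 24 h for CDC25A, RRM2, CCNE1, TYMS, PCNA and TK1 by condition, with 3 libraries of AII+EGF and 4 of each other condition. Circles and triangles are libraries of the first and second series, and the dash and bar give mean and SD. Of these genes, CDC25A is separated from control in every library with EGF and with AII+EGF.

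The precision was lower after 24 h. The median SE of a log2 fold change with EGF over the 41 genes was 0.079 after 6 h and 0.137 after 24 h, and 34 of 41 intervals with EGF lay within 1.5-fold after 24 h. The other comparisons after 24 h also gave 0 calls in edgeR and DESeq2. The interaction was the least precise, with a median SE of 0.203 and 21 of 41 intervals within 1.5-fold. Its intervals reached from -0.96 to 1.75 over the genes. At an unadjusted p under 0.05, AII+EGF against EGF had 0 higher (background 1.79%) and 2 lower (background 1.58%, TYMS and CDC25A). AII+EGF against AII had 1 higher (background 2.49%, CDC25A) and 1 lower (background 1.79%, TYMS), and the interaction had 1 higher (background 1.28%, CCNE1) and 0 lower (background 1.09%).

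A fit of all 31 libraries together tested whether an effect changed from 6 h to 24 h. The difference of the EGF effect, 24 h minus 6 h, passed an adjusted p under 0.05 in 0 of 41 genes (background 0.0821% higher and 0.0912% lower), with 7 higher (background 4.50%) and 1 lower (background 5.62%) at an unadjusted p under 0.05. CDT1 had a difference of 0.69 (SE 0.24, edgeR adjusted p 0.27), from -0.52 after 6 h to 0.17 after 24 h, and CDC25A had 0.46 (SE 0.14, edgeR adjusted p 0.2). CCNE1 had -0.89 (SE 0.33, edgeR adjusted p 0.32). For RRM2 the difference was -0.17 (SE 0.13, edgeR adjusted p 0.71), which did not pass. DESeq2 also gave 0 calls at an adjusted p under 0.05, while with the GC correction 1 gene, CDT1, passed as higher (0.192% of all genes with the correction). For AII, 2 were higher (background 2.04%) and 0 lower (background 1.8%), and for AII+EGF 2 were higher (background 3.08%) and 3 lower (background 4.4%).

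Control levels of most of the genes were lower after 24 h than after 6 h. In CPM over protein-coding genes, the ratio of the 24 h to the 6 h control mean had a median of 0.75 over the 41 genes and was below 1 in 30 of them, against a median of 0.96 over 11542 protein-coding genes, of which 22.8% lay below 0.75. PCNA had 211 ± 16 CPM after 6 h and 111 ± 5.9 CPM after 24 h (SD, n = 4 each), a ratio of 0.52, and TK1, POLE, GINS4 and MCM6 had ratios of 0.52 to 0.55. At the other end, CHAF1A, a subunit of the chromatin assembly factor, had 172 ± 32 and 239 ± 45 CPM, a ratio of 1.39. RRM2 had a ratio of 1.06. The library preparations and the time without serum both go with the time point and cannot be told apart, and no test was made.

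Further genes of the same pathways were counted in the same way. Of 64 other replication and G1/S genes, EGF after 6 h had 0 higher (background 3.60%) and 5 lower (7.81% of the list, background 2.37%) at an adjusted p under 0.05 in edgeR, and 4 higher (6.25%, background 10.2%) and 8 lower (12.5%, background 10.0%) at an unadjusted p under 0.05. AII+EGF after 6 h had 0 higher (background 4.0%) and 3 lower (4.69%, background 2.11%) at an adjusted p under 0.05. Their median log2 fold changes were -0.003 with EGF and -0.038 with AII+EGF, against -0.012 and -0.014 over all genes tested. None of the 64 passed the full rule in edgeR in any comparison. After 24 h, 0 passed an adjusted p under 0.05 against control, where EGF had 1 higher (background 4.0%) and 2 lower (background 4.48%) and AII+EGF 3 higher (background 2.92%) and 1 lower (background 2.48%) at an unadjusted p under 0.05. Of 24 mitosis genes, 0 passed an adjusted p under 0.05 in edgeR with EGF or AII+EGF against control at either time. At an unadjusted p under 0.05, EGF had 2 higher (8.33%, background 10.2%) and 2 lower (8.33%, background 10.0%) of them after 6 h, and 5 higher (20.8%, background 4.0%) and 0 lower (background 4.48%) after 24 h.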

How the data were processed

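RNA of 32 libraries is described in the labels, and counts of 31 (16 after 6 h, 15 after 24 h) were analysed. The authors deposited raw counts per gene, without normalization. Per the labels and methods, adaptors were clipped (Trim Galore, cutadapt 1.8.1), reads mapped to hg19 with TopHat2 2.0.14 and counted with featureCounts 1.4.6 on Ensembl genes. The strand setting is not given in the sources used here, so that reads of genes overlapping on opposite strands cannot be told apart. This concerns TYMS, CCNE2, GINS4 and CDK2, which share over 10% of their exonic bases with such a gene. Of the 24 h columns, 8 carry the word filtered and 7 do not, without explanation. All columns of the first library series carry it, and in the second series only a column of AII+EGF does.

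After filterByExpr, libraries were scaled by TMM and tested with the quasi-likelihood method of edgeR 4.0.16 (R 4.3.3), in 1 fit for each time point with all 4 conditions (18618 and 22174 genes) and a joint fit for the time difference (21932 genes). Adjusted p-values are Benjamini-Hochberg values over all genes tested. The full call rule asked for an adjusted p under 0.05, more than 1.5-fold change and, on average, over 5 FPM. Full values are given for genes with an adjusted p under 0.05 against control (at most 8) or, where fewer than 3 passed, for the 3 with the lowest p. Exon lengths and GC content came from GENCODE v44 on GRCh37, with 40 of 41 genes matched. The procedure was also run on simulated counts, whose outcome is not given here. These counts held no GC trend that differed between libraries, so that they cannot speak to it. Alternatives were DESeq2 1.42.0, its size factors, no filter on low counts, protein-coding genes only, a library series block, an FDR of 0.01, no FPM or fold change filter, leaving out each library, and a GC correction (lowess trend per library, added after seeing the data). The genes and lists were chosen with earlier results of these data known. Counting error limits the genes with few counts, such as CCNE1.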

Additional observations from a re-analysis of the deposited data

Results flagged for a closer look

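In 3 of 63 groups of 4 libraries that were checked for the genes given library by library, 1 library stood apart from the other three by Dixon's criterion, where chance gives about 3.1. E2F8 with EGF after 6 h had 25.1 FPM in library 2 against 28.5 to 29.1 FPM in the others (gap over range 0.852). RRM2 with EGF after 6 h had 187 FPM in library 2 against 178.0 to 179 FPM (0.842), and ORC1 with AII+EGF after 6 h had 68.3 FPM in library 2 against 72.5 to 73.1 FPM (0.874). In each case the gap was small beside the level of the gene.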

How the results depend on the processing

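No paired analysis was possible because replicates carry no numbers in the labels; a block for the library series was fitted in its place and moved no count of calls. Without the FPM and fold change filters, 5 genes were called with EGF, 2 with AII+EGF and 2 for AII+EGF against AII after 6 h. Without the filter on low counts, RBL1 with AII+EGF after 6 h missed the threshold (-0.29, edgeR adjusted p 0.061), whereas CDT1 passed an adjusted p under 0.05. Leaving out 1 library gave 0 to 1 calls with EGF after 6 h (CDT1, without control library 3 or EGF library 4) and 0 in every other comparison. The same omissions gave medians over the 41 genes of -0.102 to -0.025 with AII and -0.085 to -0.011 with EGF after 6 h, and of -0.021 to 0.029 for AII, 0.025 to 0.085 for EGF and -0.001 to 0.083 for AII+EGF after 24 h, so that signs of the medians near 0 were not stable. Of the alternatives for single genes, 423 kept direction and side of the threshold, 26 kept the direction but lost the call, 1 gained it (CDC25A with EGF after 24 h, DESeq2) and 0 reversed. Most of the 423 concern genes that had not passed and so had no call to lose. Among calls with EGF after 6 h, MCM5 lost its call in 2 of 23 alternatives, CDT1 in 3, ORC1 in 5 and MCM2 in 6. RBL1 with AII+EGF after 6 h lost it in 10 of 23, and RRM2 in 0 with either. The spread between control libraries was larger after 24 h than after 6 h, at similar counts on these genes.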
